A study of Mus musculus with 2 samples.

Results

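The UDP-glucuronosyltransferase (UGT) and cytosolic sulfotransferase (SULT) genes of mouse liver were described by polyA RNA sequencing in a liver sample given TSA and in an untreated liver sample, 1 library each. They were chosen by name, as every listed symbol of the Ugt1, Ugt2 and Ugt3 families and every numbered Sult symbol, which gave 41 of 21878 listed genes, 20 UGT and 21 SULT. Both samples came from FVB/N mice whose livers had received c-Myc by hydrodynamic injection, a fast, high-volume injection used to bring DNA into part of the hepatocytes, and they differed by label in treatment alone. The study asked, by its title, how TSA bears on liver cancer driven by c-Myc. The labels do not spell out TSA and give neither dose, time, age, sex, the promoter that drove c-Myc, the number of animals behind a library, nor whether tumour or whole liver was taken.

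Conjugation is the second step by which the liver makes fat-soluble compounds fit for excretion. UGT enzymes sit in the endoplasmic reticulum and add glucuronic acid from UDP-glucuronic acid, while SULT enzymes are cytosolic and add sulfate from the donor PAPS. Bilirubin, bile acids, steroid and thyroid hormones, phenols and many drugs are their substrates, and high expression of these enzymes is a trait of adult hepatocytes.

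Of the 41 genes, 29 reached 20 counts in the sum of both libraries and are described here, 16 UGT and 13 SULT. The other 12 were too low for a ratio. *Ugt2a1*, *Ugt2a2*, *Sult1c1*, *Sult2a4* and *Sult6b2* had 0 counts in both libraries, a result that leaves room for up to 3 counts in each. *Ugt1a2* had 6 counts with TSA and 3 without treatment, *Ugt1a7c* 3 and 10, *Sult2a3* 11 and 0, *Sult2a7* 12 and 0, *Sult2b1* 1 and 2, *Sult4a1* 1 and 0, and *Sult6b1* 0 and 3, with TSA given first in each case. Several of these are known from other organs, *Ugt2a1* from olfactory epithelium and *Sult4a1* from brain.

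All 29 described genes were higher in the TSA library. A gene was called higher at a ratio of TSA over untreated of at least 2 with a 95% counting interval that excluded 1, after TMM scaling of the libraries. Of all 13027 genes with enough counts 26.0% were called higher and 27.4% lower, and no described UGT or SULT gene was lower. A ratio of at least 10 was reached by 26 of the 29 genes, against 7.81% of all genes, and a ratio of at least 100 by 18 of the 29, against 1.94%. The minimum count applied to the sum of both libraries, so a gene with few untreated counts could pass only by its TSA count. *Ugt1a5*, *Ugt1a10*, *Ugt2b37*, *Ugt2b38*, *Ugt3a1*, *Sult1b1*, *Sult1e1*, *Sult2a1*, *Sult2a2*, *Sult2a5*, *Sult2a6* and *Sult3a2* passed in this way. For them the filter favoured a higher call and a large ratio, and the numbers at 10-fold and 100-fold and the medians include them. The other described genes reached the minimum in the untreated library alone, and all were called higher. Of these *Ugt1a1*, *Ugt2a3*, *Ugt2b1*, *Ugt2b5*, *Ugt2b36*, *Ugt3a2*, *Sult1a1*, *Sult2a8* and *Sult3a1* had ratios of at least 100. The rest had ratios from 4.77 to 98.6. With total counts in place of TMM all 29 were still called higher, against 16.0% of all genes, while 48.7% of all genes were called lower. The median log2 ratio was 7.39 for the 29 genes, 7.31 for the 16 UGT genes, 8.75 for the 13 SULT genes and -0.11 for all genes. With 1 library per group there is no test across conditions, and every interval covers counting error only. In a bulk sample, fewer cells of a type and less RNA per cell cannot be told apart.

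These genes stood high in the transcriptome of the TSA library and low in that of the untreated library. In the TSA library 27 of the 29 genes had at least 1 FPKM, the deposited level, which is scaled to gene length and library size, and 12 had at least 100. In the untreated library 12 had at least 1 FPKM and 0 had 100. Ranked by FPKM, 14 of the genes lay among the 1000 highest genes of the TSA library and 0 among the 1000 highest of the untreated library. The UGT genes together came to 1911 FPKM with TSA and 73.4 FPKM without treatment, and the SULT genes to 1907 and 13.2 FPKM. Together they took 0.744% of all counts with TSA and 0.0240% without treatment.

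**Figure D1:**
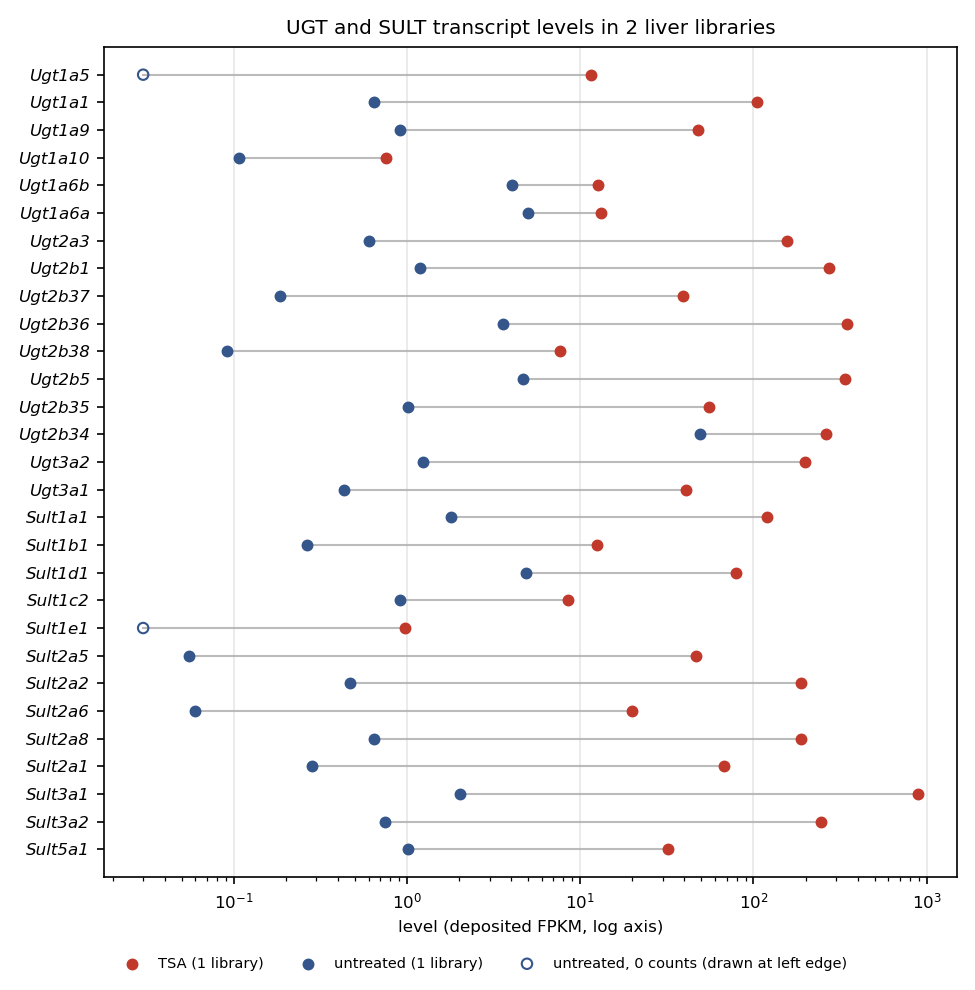
Level of each described gene in deposited FPKM on a log axis, with the TSA library in red and the untreated library in blue, 1 library each. In all 29 genes the TSA point lies to the right of the untreated point, and *Ugt2b34* at 49.5 FPKM is the rightmost untreated point.

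The TSA library also held more hepatocyte message as a whole. All 10 hepatocyte markers were called higher under TMM scaling and 9 with total counts, where *Hnf4a* was not called. Their summed deposited FPKM, which carries no TMM scaling, was 59511 with TSA and 5369 without treatment, an 11.1-fold difference, and none was at 0. By ratio 22 of the 29 UGT and SULT genes lay above *Alb*, for serum albumin, at 57.1-fold (56.6 to 57.6), 29 above *Hnf4a* and 1 above *Tat*. All 8 proliferation markers were lower, at a summed 3.43 FPKM with TSA against 503.9 FPKM without treatment. Endothelial markers summed to 129 FPKM with TSA and 33.7 FPKM without treatment (8 of 9 higher, 0 lower), erythroid markers to 421 and 149.96 FPKM (5 of 5 tested higher), macrophage markers to 240.4 and 494 FPKM (5 higher and 2 lower of 8), stellate markers to 111 and 81.1 FPKM (4 higher and 2 lower of 8), lymphocyte markers to 8.37 and 5.79 FPKM (4 of 5 tested higher), and cholangiocyte markers to 23.5 and 37.8 FPKM (4 higher and 2 lower of 6 tested), with TSA first in each pair. Of the other organs, 5 of 6 kidney tubule markers and 4 of 6 enterocyte markers were at 0 with TSA, and 2 and 3 of them were at 0 without treatment (*Umod* and *Aqp2* for kidney, *Alpi*, *Sis* and *Cdx2* for enterocytes, at 0 in both libraries). Their summed levels were 0.00378 FPKM with TSA against 6.35 FPKM without treatment for kidney, where both tested markers were lower, and 40.2 against 15.7 FPKM for enterocytes, where 1 of 2 was higher and 1 lower. Single genes carried some of these sums. *Alb* gave 40496 FPKM of the hepatocyte sum and *Fabp2* 40.1 FPKM of the enterocyte sum with TSA. *Lyz2* gave 381 FPKM of the macrophage sum and *Lrp2* 5.91 FPKM of the kidney sum without treatment. The calls of the other cell types are so far those under TMM scaling, where 26.0% of all genes were higher and 27.4% lower. With total counts 16.0% of all genes were higher and 48.7% lower. By that scaling 5 of 9 endothelial, 5 of 5 erythroid and 3 of 5 lymphocyte markers were higher and 0 of each lower. Macrophage markers gave 3 higher and 2 lower, stellate markers 3 and 3, and cholangiocyte markers 3 and 2, while the kidney, enterocyte and proliferation calls gave the same numbers. The part of these shifts in the UGT and SULT ratios was not tested.

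The Ugt1a locus is a single transcription unit in which each enzyme has its own opening exon and all share the downstream exons. In GENCODE M21 each member continued into the same 4 exons, with 735 shared coding bases and between 849 and 870 coding bases of its own. The joints below show why reads over the downstream part cannot name a member. They are the last 30 bases of the member's own part, in lower case, followed by the first 30 bases of the shared part, in capitals, on chromosome 1.
Ugt1a1: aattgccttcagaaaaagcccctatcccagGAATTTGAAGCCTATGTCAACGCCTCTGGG
Ugt1a5: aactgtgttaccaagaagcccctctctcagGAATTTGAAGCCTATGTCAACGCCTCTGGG
Ugt1a9: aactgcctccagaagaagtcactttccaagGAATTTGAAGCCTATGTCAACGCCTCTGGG
Ugt1a10: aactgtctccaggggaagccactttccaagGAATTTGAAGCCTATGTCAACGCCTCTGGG
Ugt1a6a: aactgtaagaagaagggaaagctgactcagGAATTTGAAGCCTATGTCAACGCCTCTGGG

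The joint of *Ugt1a6a* was the same over all 60 bases in *Ugt1a6b* and *Ugt1a7c*, and that of *Ugt1a5* the same in *Ugt1a2*. Between 52.1% (*Ugt1a6a*) and 79.8% (*Ugt1a6b*) of a member's 50-base stretches occurred in another gene. The gene lengths behind the deposited FPKM included the shared part: for *Ugt1a1*, *Ugt1a5*, *Ugt1a6a* and *Ugt1a10* they equalled the member's own part plus the longest shared part of 2316 bases, 3229 bases in all for *Ugt1a1*. Reads of that part were not counted in full for each member, since *Ugt1a7c* had 3 counts in the TSA library in which *Ugt1a1* had 5817. The sources used here do not say how they were divided, so levels and ratios within the locus are uncertain.

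Within the locus the ratios of the 6 described members ran from 4.77 to 388. *Ugt1a1*, the enzyme that conjugates bilirubin, had 5817 counts (105 FPKM) in the TSA library and 36 counts (0.645 FPKM) in the untreated library, and was 295-fold (213 to 421) higher. *Ugt1a5* had 637 counts (11.6 FPKM) with TSA and 0 without treatment. It was 388-fold higher when the 0 was set to a floor of 3 counts per library, with a lower 95% counting limit of 314. *Ugt1a9*, which conjugates bulky phenols, had 2640 counts (48.0 FPKM) with TSA and 51 (0.918 FPKM) without treatment and was 94.5-fold (71.6 to 127) higher. These members had few or no counts in the untreated library.

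The members for small planar phenols had the most Ugt1a counts of the untreated library. *Ugt1a6a* had 747 counts (13.2 FPKM) with TSA and 286 (5.01 FPKM) without treatment, a ratio of 4.77 (4.15 to 5.48), the smallest of the 29 genes. *Ugt1a6b*, which shares most of its sequence with it, had 497 counts (12.7 FPKM) with TSA and 160 (4.04 FPKM) without treatment, a ratio of 5.67 (4.73 to 6.82). Neither interval reached that of *Ugt1a9*. *Ugt1a10* was close to the detection limit, with 42 counts with TSA and 6 without treatment, and was 12.8-fold (5.4 to 36.8) higher. The locus as a whole had 10389 counts with TSA and 552 without treatment.

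The Ugt2 genes, whose enzymes act on steroids, bile acids and many drugs, gave the most UGT message in both libraries, 1479 FPKM with TSA and 60.8 FPKM without treatment. All 8 described members were higher, 6 of them by at least 100-fold. *Ugt2b36* was the most abundant UGT message of the TSA library, with 11147 counts (345.5 FPKM) against 117 counts (3.59 FPKM) without treatment, and was 174-fold (145 to 210.5) higher. *Ugt2b5* had 10973 counts (339 FPKM) with TSA and 153 (4.67 FPKM) without treatment and was 131-fold (112 to 155) higher. *Ugt2b1* had 11924 counts (274 FPKM) with TSA and 52 (1.18 FPKM) without treatment and was 419-fold (319 to 561) higher. The largest Ugt2 ratio was that of *Ugt2a3*, a bile acid UGT by its human counterpart, with 5664 counts (157 FPKM) with TSA and 22 (0.601 FPKM) without treatment, at 469.9-fold (310.1 to 750.4) higher.

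*Ugt2b34* was the one Ugt2 gene with a sizeable level without treatment. It had 13614 counts (261 FPKM) with TSA and 2606 counts (49.5 FPKM) without treatment, and its ratio of 9.53 (9.14 to 9.95) was the smallest of the family. It ranked 236 by FPKM among all genes of the TSA library and 1611 in the untreated library, the highest untreated rank of any described gene. The remaining members were *Ugt2b35* at 98.6-fold (76.2 to 129.8), *Ugt2b37* at 385-fold (176 to 1050.5) and *Ugt2b38* at 149.7-fold (50.6 to 731) higher. The last rests on 3 untreated counts. *Ugt2b5* and *Ugt2b38* shared 41.7% and 37.4% of their 50-base stretches with other genes, mainly with each other, whereas *Ugt2b1* shared none and *Ugt2b36* 0.285%.

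The Ugt3 enzymes, which in humans use sugars other than glucuronic acid, were higher as well. *Ugt3a2* had 7934 counts (199 FPKM) with TSA and 50 (1.24 FPKM) without treatment and was 289.6-fold (219 to 390.5) higher. *Ugt3a1* had 1567 counts (40.6 FPKM) with TSA and 17 (0.436 FPKM) without treatment and was 168-fold (105 to 289.5) higher. The intervals of these neighbouring genes overlapped.

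**Figure D2:**
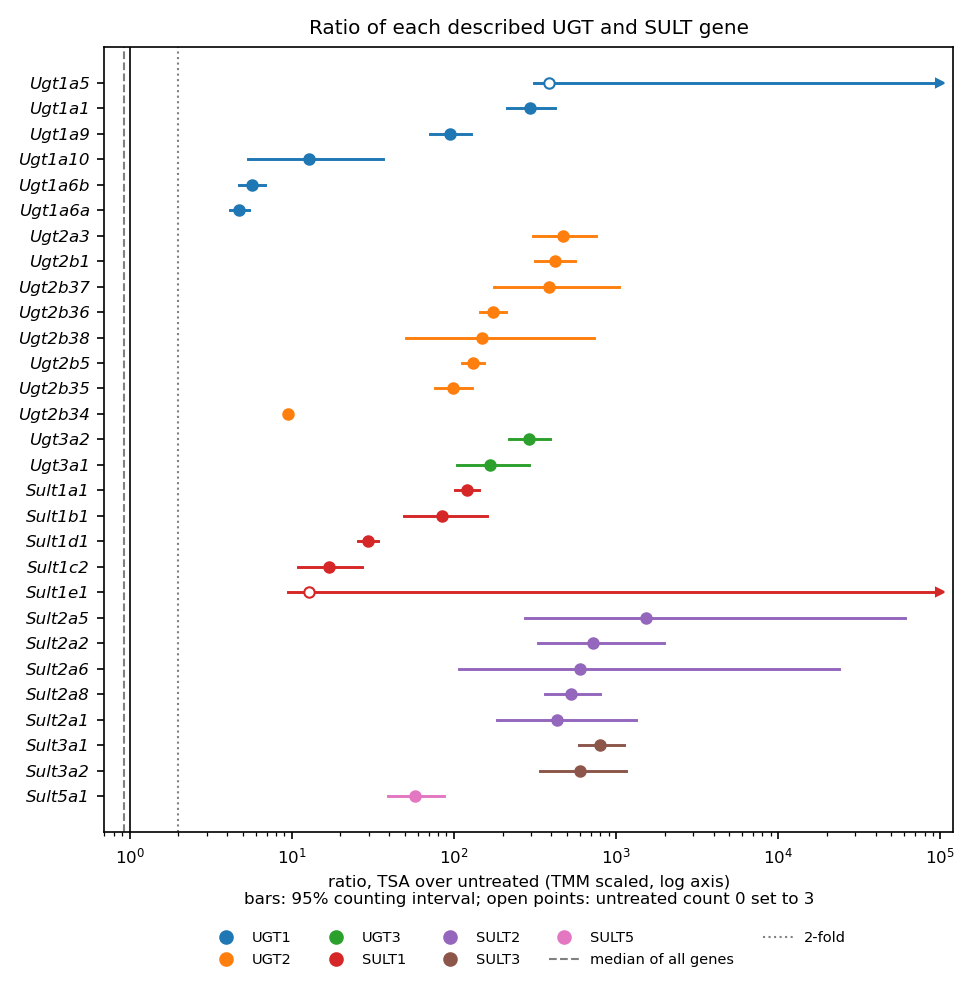
Ratio of TSA over untreated for each described gene after TMM scaling, on a log axis, coloured by family, with 95% counting intervals; open points had an untreated count of 0 set to 3. The smallest ratios belong to *Ugt1a6a*, *Ugt1a6b* and *Ugt2b34*, at 4.77, 5.67 and 9.53, and the SULT2 and SULT3 genes lie between 431 and 1529.

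The Sult1 genes code for enzymes that sulfate phenols, catecholamines, thyroid hormone and oestrogens. All 5 described members were higher, at ratios from 12.8 to 120.5. *Sult1a1*, the main phenol sulfotransferase of liver, had 9377 counts (119 FPKM) with TSA and 142 (1.79 FPKM) without treatment and was 120.5-fold (102 to 143) higher. *Sult1d1*, which sulfates catecholamines in mice, had 3237 counts (79.1 FPKM) with TSA and 201 (4.86 FPKM) without treatment and was 29.4-fold (25.5 to 34.1) higher. It was the most abundant SULT message of the untreated library.

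The other Sult1 members were less abundant. *Sult1b1*, for an enzyme that sulfates thyroid hormone, had 605 counts (12.5 FPKM) with TSA and 13 (0.266 FPKM) without treatment and was 84.9-fold (49.3 to 160.5) higher. *Sult1c2* had 213 counts (8.51 FPKM) with TSA and 23 (0.908 FPKM) without treatment and was 16.9-fold (10.97 to 27.2) higher. *Sult1e1*, the oestrogen sulfotransferase, had 21 counts (0.975 FPKM) with TSA and 0 without treatment. It was 12.8-fold higher when the 0 was set to the floor of 3 counts, with a lower counting limit of 9.50. Its level with TSA was thus near 1 FPKM and far below that of the phenol enzymes.

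The Sult2a genes, whose enzymes sulfate hydroxysteroids and bile acids, had ratios from 431 to 1529, on 1 to 28 untreated counts per gene. *Sult2a8*, for a bile acid sulfotransferase of mouse liver, rested on the most counts, 8137 (189 FPKM) with TSA and 28 (0.644 FPKM) without treatment, and was 530.4-fold (367 to 799) higher. *Sult2a2* had 2382 counts (188 FPKM) with TSA and 6 (0.469 FPKM) without treatment and was 725-fold (332 to 1976) higher. *Sult2a1* had 1182 counts (67.7 FPKM) with TSA and 5 (0.283 FPKM) without treatment and was 431-fold (184 to 1331) higher. *Sult2a5* and *Sult2a6* had 838 and 330 counts with TSA and 1 count each without treatment, so their ratios of 1529 (274 to 60481) and 602 (107 to 23860) are poorly bounded above, and only their lower bounds are informative.

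Some members of this cluster are close copies, which the opening coding bases of 4 of them show. The first 60 coding bases in GENCODE M21, all on chromosome 7, are printed in lower case, with capitals at the 11 positions at which the 4 genes are not all the same.
Sult2a1: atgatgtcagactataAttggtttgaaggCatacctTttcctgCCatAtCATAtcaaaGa
Sult2a2: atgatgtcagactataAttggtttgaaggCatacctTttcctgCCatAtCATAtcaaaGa
Sult2a5: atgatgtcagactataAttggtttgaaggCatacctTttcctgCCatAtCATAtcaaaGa
Sult2a6: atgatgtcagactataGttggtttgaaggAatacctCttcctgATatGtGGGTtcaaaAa

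In this window *Sult2a1*, *Sult2a2* and *Sult2a5* were the same. Over 855 coding bases *Sult2a1* was identical to *Sult2a5* at 94.9% of positions and to *Sult2a6* at 89.7%. Of the 50-base stretches 62.1% of *Sult2a2*, 34.5% of *Sult2a5*, 33.2% of *Sult2a1* and 6.63% of *Sult2a6* occurred in another gene, and 1.72% of *Sult2a8*. The split of counts among *Sult2a1*, *Sult2a2* and *Sult2a5* is therefore uncertain, while *Sult2a8* shared no stretch with another UGT or SULT gene. The 9 Sult2 genes had 12893 counts with TSA and 43 without treatment.

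The Sult3a genes gave the most SULT message with TSA. *Sult3a1*, for an amine sulfotransferase that is higher in livers of female mice, had 18029 counts (894 FPKM) with TSA and 41 (2.01 FPKM) without treatment. It ranked 62 by FPKM among all genes of the TSA library and 9737 in the untreated library. Sex is not given for either library, and its part in the UGT and SULT ratios was not tested. *Sult3a2* had 3925 counts (247 FPKM) with TSA and 12 (0.747 FPKM) without treatment and was 597-fold (341 to 1156) higher. Its interval overlapped that of *Sult3a1* at 803-fold (591 to 1119), and 6.15% and 7.72% of the stretches of *Sult3a1* and *Sult3a2* were shared between them. *Sult5a1*, for an enzyme of poorly known function, had 882 counts (32.2 FPKM) with TSA and 28 (1.01 FPKM) without treatment and was 57.5-fold (39.5 to 87.0) higher.

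The make-up of each enzyme class also differed, and shares within a library do not depend on scaling. *Ugt2b34* made up 13.7% of summed UGT FPKM with TSA and 67.4% without treatment. *Ugt2b36*, *Ugt2b5* and *Ugt2b1* made up 18.1%, 17.7% and 14.3% with TSA, against 4.88%, 6.37% and 1.61% without treatment. *Ugt1a6a* and *Ugt1a6b* made up 0.693% and 0.664% with TSA and 6.82% and 5.50% without treatment. Among SULT genes *Sult3a1* made up 46.9% with TSA and 15.2% without treatment, whereas *Sult1d1* made up 4.15% with TSA and 36.7% without treatment. The untreated SULT shares rest on 506 counts in all.

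**Figure D3:**
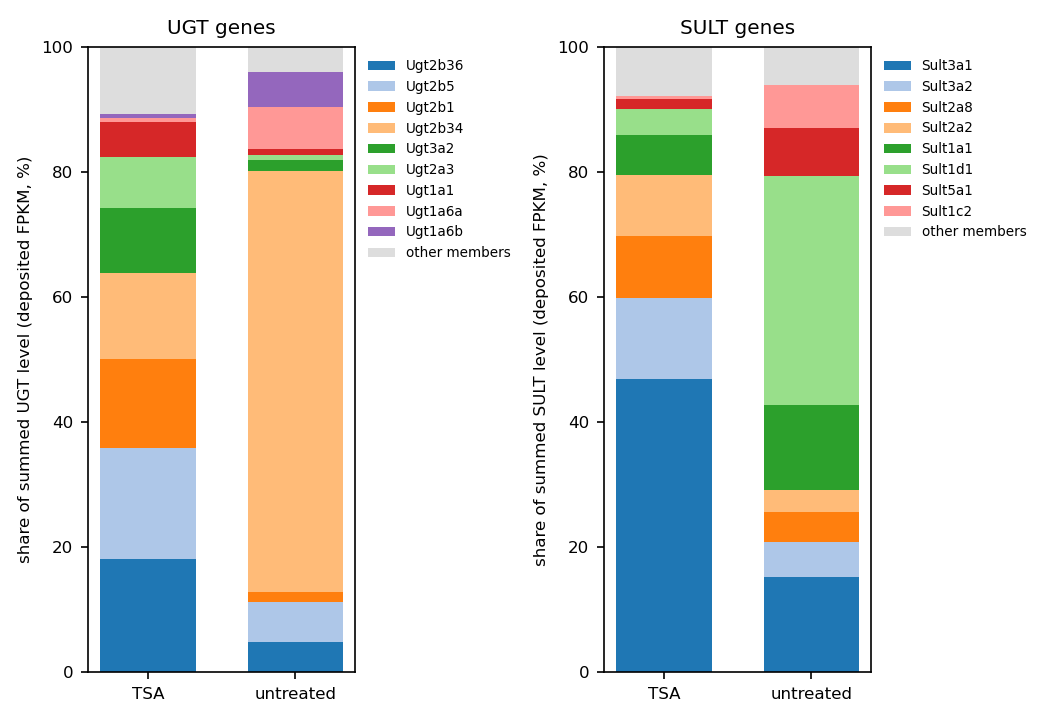
Share of each gene in the summed deposited FPKM of the UGT genes (left) and of the SULT genes (right), in percent, with the TSA library left of the untreated library in each panel. *Ugt2b34* fills 13.7% of the TSA bar and 67.4% of the untreated bar, and *Sult3a1* 46.9% and 15.2%.

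Most of these genes lie in clusters, by their order in RefSeq on GRCm38.p6. The 8 Ugt1a genes lie together on chromosome 1, the 10 Ugt2 genes lie beside *Sult1b1*, *Sult1d1* and *Sult1e1* on chromosome 5, and the 8 Sult2a genes lie together on chromosome 7. In each cluster genes with large ratios stood beside genes with few or no counts. *Ugt1a5*, at 637 counts with TSA, stood between *Ugt1a6a* and *Ugt1a2*, which had 747 and 6. *Ugt2b34*, with the smallest Ugt2 ratio, stood at the end of its cluster, and *Ugt2a1* and *Ugt2a2*, with no counts, separated the Ugt2b genes from the Sult1 genes.

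**Figure D4:**
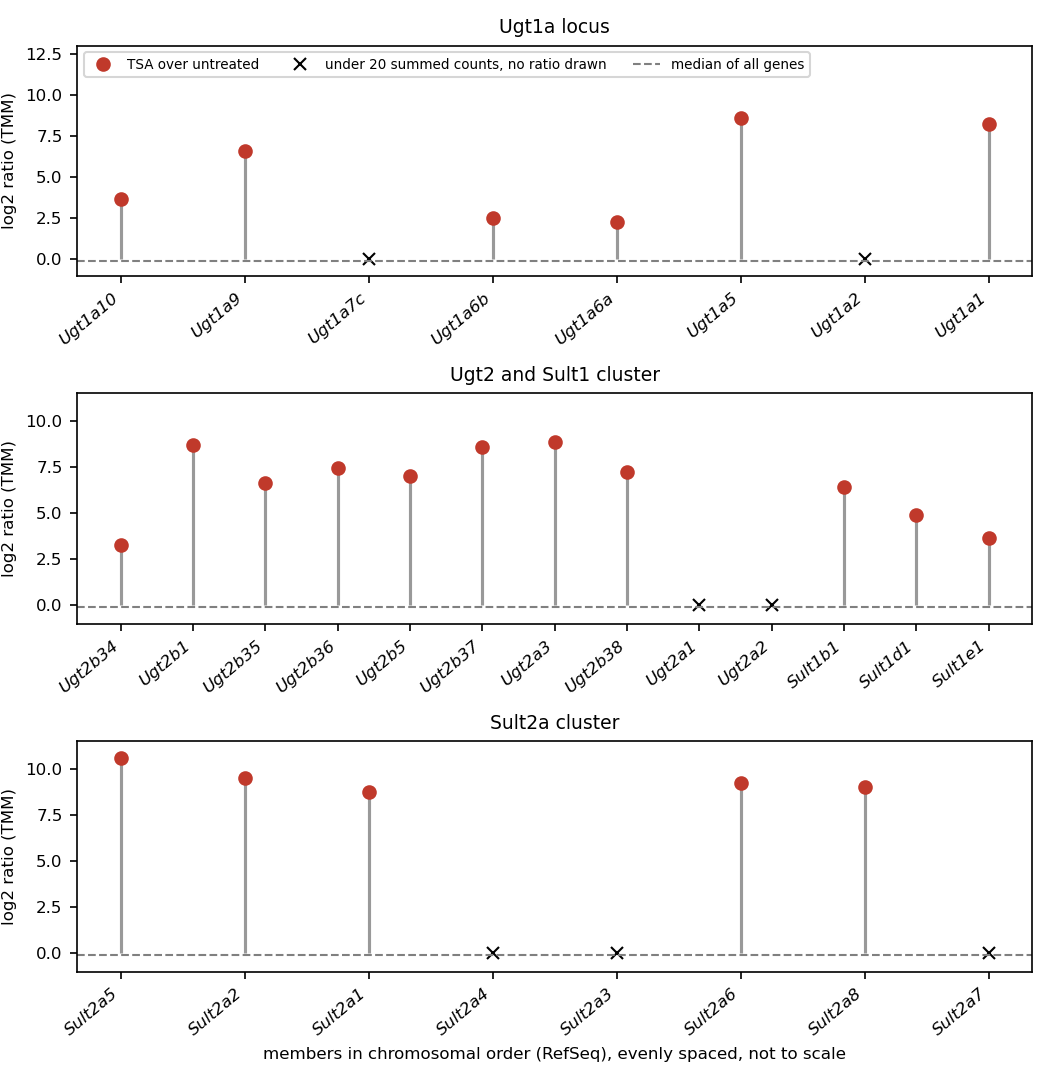
Log2 ratio of TSA over untreated after TMM scaling for the members of the 3 large clusters, in chromosomal order and evenly spaced; crosses are genes under 20 summed counts. Neighbours can differ widely, as *Ugt1a6a* at 2.25 and *Ugt1a5* at 8.60 do.

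Promoters were read from RefSeq, which gave 27 windows of 250 bases before to 50 bases after a start for 25 of the 29 described genes. *Ugt1a6b*, *Ugt3a2*, *Sult2a1* and *Sult2a2* had none. The windows of *Ugt1a1*, *Ugt2b36*, *Sult1a1*, *Sult2a8* and *Sult3a1*, the genes with the highest TSA level in their families, are printed from GRCm38.p6 on the strand of the gene, as examples of promoters whose genes were higher together. Capitals mark matches on either strand to the TATA box TATAAA, found in the *Sult2a8* window, or to the STAT site TTCNNNGAA, found in the *Sult3a1* window, and the other windows hold neither.
Ugt1a1, chr1:88211709-88212008, plus strand: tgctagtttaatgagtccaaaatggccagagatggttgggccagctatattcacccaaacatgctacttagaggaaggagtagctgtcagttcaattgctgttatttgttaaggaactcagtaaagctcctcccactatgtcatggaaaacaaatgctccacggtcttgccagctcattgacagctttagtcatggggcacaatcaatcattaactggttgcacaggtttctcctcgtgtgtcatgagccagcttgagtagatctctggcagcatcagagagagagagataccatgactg
Ugt2b36, chr5:87092506-87092805, minus strand: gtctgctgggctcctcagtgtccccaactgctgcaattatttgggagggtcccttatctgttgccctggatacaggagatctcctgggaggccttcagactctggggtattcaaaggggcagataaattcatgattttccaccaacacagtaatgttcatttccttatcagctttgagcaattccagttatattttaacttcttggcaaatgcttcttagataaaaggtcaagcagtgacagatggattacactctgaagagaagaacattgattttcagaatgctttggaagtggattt
Sult1a1, chr7:126676369-126676668, minus strand: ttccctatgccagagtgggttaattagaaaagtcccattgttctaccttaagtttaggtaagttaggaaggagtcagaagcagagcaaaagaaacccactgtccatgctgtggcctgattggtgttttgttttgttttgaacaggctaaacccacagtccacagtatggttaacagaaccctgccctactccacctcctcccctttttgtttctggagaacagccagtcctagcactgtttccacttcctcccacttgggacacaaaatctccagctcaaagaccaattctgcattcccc
Sult2a8, chr7:14446538-14446837, minus strand: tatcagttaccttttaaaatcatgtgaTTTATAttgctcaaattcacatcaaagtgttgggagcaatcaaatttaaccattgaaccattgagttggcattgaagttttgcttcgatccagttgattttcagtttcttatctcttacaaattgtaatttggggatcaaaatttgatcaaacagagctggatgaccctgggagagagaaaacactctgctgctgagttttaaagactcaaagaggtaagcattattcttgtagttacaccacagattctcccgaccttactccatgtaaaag
Sult3a1, chr10:33857472-33857771, plus strand: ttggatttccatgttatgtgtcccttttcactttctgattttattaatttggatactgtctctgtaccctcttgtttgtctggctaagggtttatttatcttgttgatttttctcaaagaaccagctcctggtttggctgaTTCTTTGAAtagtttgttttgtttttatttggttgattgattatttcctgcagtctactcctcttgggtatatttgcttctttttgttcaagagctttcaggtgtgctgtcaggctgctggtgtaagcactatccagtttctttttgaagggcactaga

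Each motif was searched on both strands in the 27 windows and in all 32851 RefSeq windows of the same length. The letters of the TATA box were found, at any position, in 7 of the 27 windows, 25.9%, against 13.6% of all. Counted from the start, matches began at 5 in *Sult1d1*, -6 in *Sult2a5*, -8 in *Ugt3a1* and -49 in *Sult2a6*. They began at -29 and -167 in *Sult3a2* and at -29 and -223 in *Sult2a8*. The printed *Sult2a8* window holds only the match at -223, and the one at -29 lies in its other window. The STAT site was found in 7.41%, near the 8.30% of all windows, in *Sult3a1* and *Ugt1a6a*. The core GCGTG of the dioxin receptor AHR was found in 11.1% against 32.4%, in *Sult1b1*, *Sult1d1* and *Ugt1a5*. The HNF4 site CAAAGTCCA was found in 3.70% against 0.475%, in *Sult1b1* alone. The E-box CACGTG, a site bound by MYC, was found in 0 of the 27 windows and in 7.15% of all. A match describes letters, not binding, and repeat sequence was not masked.

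The genes that supply the donor substrates had mixed directions. Of 11 tested genes of sulfate uptake, PAPS synthesis and PAP breakdown 4 were higher (36.4%, against 26.0% of all genes) and 1 was lower (9.09%, against 27.4%) under TMM scaling. Total counts gave 3 higher (27.3%, against 16.0%) and 3 lower (27.3%, against 48.7%), and the median log2 ratio with TMM was 0.31. *Papss2*, for the PAPS synthase of adult liver, had 8795 counts (133 FPKM) with TSA and 62 (0.924 FPKM) without treatment and was 259-fold (202 to 338) higher. The second synthase gene, *Papss1*, named after its values were seen, had 257 counts (5.16 FPKM) with TSA and 848 (16.8 FPKM) without treatment, a ratio of 0.553 (0.479 to 0.637) that was called lower with total counts only. *Slc26a1*, for a sulfate carrier of hepatocytes, was 82.4-fold (69.9 to 97.9) higher. *Suox*, for the oxidase that makes sulfate from sulfite, was 35.6-fold (29.5 to 43.4) higher, and *Slc35b2*, for a Golgi PAPS carrier, was 2.05-fold (1.86 to 2.26) lower, both named after their values were seen.

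The list for the supply of UDP-glucuronic acid held 7 genes, for enzymes and for membrane carriers. Of these 4 were higher (57.1%, against 26.0% of all genes) and 1 was lower (14.3%, against 27.4%) under TMM scaling. Total counts gave 1 higher (14.3%, near the 16.0% of all genes) and 1 lower (against 48.7%). *Ugp2*, for the enzyme that makes UDP-glucose, was 8.36-fold (7.79 to 8.97) higher. Of the phosphoglucomutase genes *Pgm2*, with 4349 counts (109 FPKM) with TSA and 6552 (162 FPKM) without treatment, was at 1.21-fold (1.17 to 1.26). *Pgm1*, with 96 counts (1.03 FPKM) with TSA and 593 (6.28 FPKM) without treatment, was 3.38-fold (2.72 to 4.24) lower. The annotation is not stated, so which enzyme each *Pgm* symbol names is uncertain. *Ugdh*, which makes UDP-glucuronic acid itself and is named after its values were seen, had 1630 counts (37.8 FPKM) with TSA and 1631 (37.4 FPKM) without treatment, and its ratio of 1.82 (1.70 to 1.95) was not called. Its interval lay below the interval of each of the 16 UGT genes.

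Of 13 tested genes that cleave conjugates or activate sulfatases 4 were higher (30.8%, near the 26.0% of all genes) and 2 lower (15.4%, against 27.4%) under TMM scaling. Total counts gave 2 higher (15.4%, near the 16.0% of all genes) and 4 lower (30.8%, against 48.7%), so the calls of this list are no result about it. *Gusb*, for the beta-glucuronidase of lysosomes, was 2.85-fold (2.60 to 3.14) lower. *Ids*, for a lysosomal sulfatase, was 4.95-fold (4.14 to 5.95) higher, and *Sulf1*, for an extracellular heparan sulfatase, 7.53-fold (3.41 to 18.9) higher.

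All 8 genes for uptake into hepatocytes were higher under TMM scaling, against 26.0% of all genes, and 7 by total counts, against 16.0%, and *Slc22a7*, for an organic anion carrier, was the highest at 738-fold (316 to 2275). *Slco1a1* and *Slco1b2*, for carriers that take up conjugated hormones and bilirubin, were 306-fold and 293-fold higher. Of 8 genes for export 4 (50%) were higher and 3 (37.5%) lower under both scalings, against 26.0% and 27.4% of all genes with TMM and 16.0% and 48.7% with total counts. *Abcc2*, for the carrier of glucuronides into bile, had 10584 counts (109.7 FPKM) with TSA and 2737 (28.1 FPKM) without treatment and was 7.06-fold (6.77 to 7.36) higher, *Abcc3* 8.57-fold (7.97 to 9.22) higher, and *Abcb11*, the bile salt pump, 29.9-fold (26.8 to 33.4) higher. The lower genes, named after their values were seen, were *Abcc1*, *Abcc4* and *Abcc5*, for export carriers of the same family, at 5.94-fold (4.51 to 7.96), 5.28-fold (4.60 to 6.08) and 7.74-fold (6.54 to 9.22) lower.

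Of 22 transcription factor genes known to act on UGT or SULT genes 15 were higher (68.2%, against 26.0% of all genes) and 1 was lower (4.55%, against 27.4%) under TMM scaling. Total counts gave 10 higher (45.5%, against 16.0%) and 3 lower (13.6%, against 48.7%). *Nr1i3*, for the drug-sensing receptor CAR, had 5017 counts (87.6 FPKM) with TSA and 53 (0.915 FPKM) without treatment and was 173-fold (132 to 231) higher. *Esr1*, for the oestrogen receptor, was 132-fold (92.0 to 196) higher, and *Rxra* and *Hnf4a* were 3.52-fold and 2.46-fold higher, or 1.95-fold and 1.36-fold of the untreated level with total counts. The lower gene was *Vdr*, with 2 counts with TSA and 21 without treatment, named after its values were seen.

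**Figure D5:**
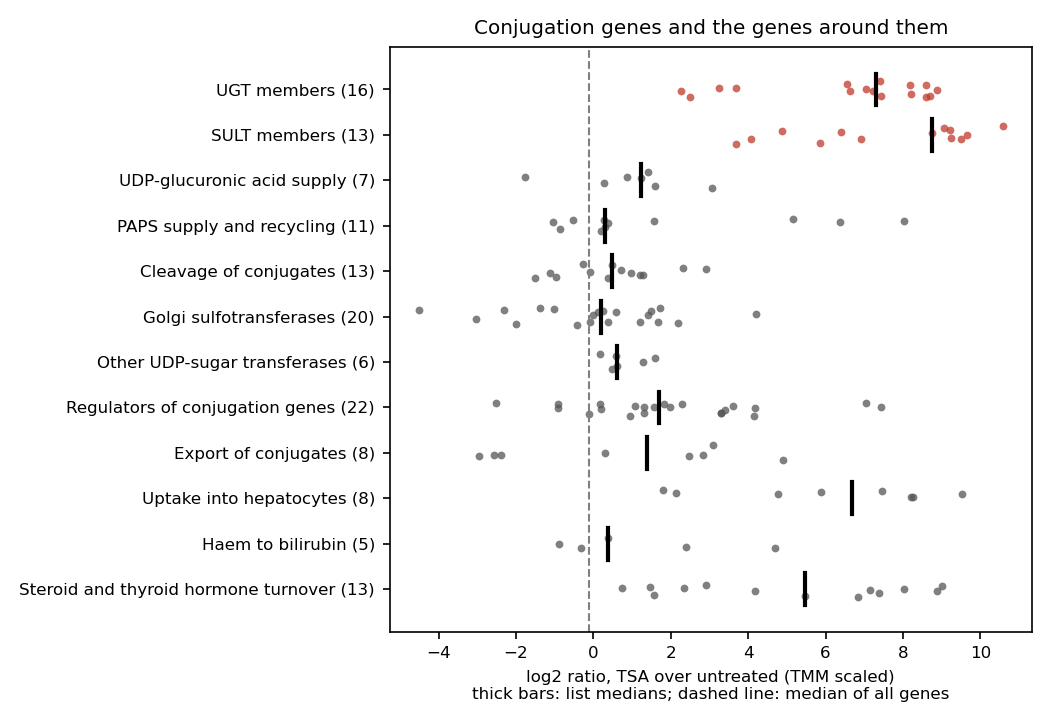
Log2 ratio of TSA over untreated after TMM scaling for the UGT and SULT genes (red) and for each list of related genes (grey), 1 point per gene, with list medians as thick bars and the number tested in brackets. The UGT and SULT medians lie at 7.31 and 8.75, that of uptake carriers at 6.67, and those of donor supply at 1.24 and 0.31.

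The cytochrome P450 genes, for the oxidising enzymes of the step before conjugation, were higher as well, with 1 exception. Of 47 described genes of P450 families 1 to 3 46 were higher and 1 was lower with TMM, against 26.0% and 27.4% of all genes, and 45 and 1 with total counts, against 16.0% and 48.7%, with a median log2 ratio of 7.68 and 32 genes at 100-fold or more. Of 18 glutathione transferase genes, the third large class of conjugating enzymes, TMM gave 15 higher and 1 lower and total counts 15 and 3, with a median of 3.39 and 1 gene at 100-fold or more. The summed FPKM was 69.0-fold higher for the P450 genes, 44.1-fold for the 41 UGT and SULT genes and 3.80-fold for the glutathione transferases. The differences between these classes were not tested.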

How the data were processed

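PolyA RNA of mouse liver was sequenced in 2 libraries, 1 per group. Trimmomatic, HISAT2, Bowtie2 and DESeq are named, without roles or versions, in the submitters' processing notes; the sources used here do not state the build, the annotation, how reads were counted or whether strand was used. Whole, unscaled reads per gene symbol make up the deposited counts, per the file headers. The authors made the deposited FPKM from those counts: each of the 14271 genes found in both libraries gave 1 whole gene length when its FPKM was divided out, with a tolerance of 0.1 base.

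Total counts were 17088227 (TSA) and 17281523 (untreated). TMM factors, 0.744 for TSA and 1.34 for untreated, came from edgeR 4.0.16 (R 4.3.3); TMM rests on the assumption that most genes are unchanged, and it lies 0.85 (log2) above total counts for every gene. Alternatives were total counts, upper quartiles and the size factors of DESeq2 1.42.0. Intervals are exact conditional binomial (Clopper-Pearson, 95%) and cover counting error only; reads lack molecular identifiers and are not independent molecules. A count of 0 was set to 3 counts per library. Calls, intervals and ratios were tested on counts simulated with counting error only, so that test covers the computation and not spread between animals. Levels between genes are compared in FPKM only.

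Genes were named by rule: all described members, and in each related list the 2 largest differences and the 2 largest summed counts among tested genes; others are marked in the text. The members and lists were chosen with earlier results of these data known. Shared stretches, joints and coding starts are from GENCODE M21 transcripts (exact 50-base matches, sense strand), promoters from RefSeq GRCm38.p6. The rule for proteins could not be followed, and proteins are not analysed here. Some genes and sequences of these lists are not reported here. Tables and figures were made in Python 3.11.15 with scipy 1.17.1, pandas 2.3.3, matplotlib 3.10.9 and numpy 2.4.6.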

Additional observations from a re-analysis of the deposited data

How the results depend on the processing

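All 29 described genes were called higher and 0 lower under every scaling, with the deposited FPKM plus 0.1, with a floor of 1 count and at thresholds of 1.5-fold, 4-fold and an interval bound past 2-fold; with at least 100 summed counts 27 of 27 were called higher, and with at least 1 summed count 31 of 36. The median log2 ratio, 7.39 with TMM, was 6.54 with total counts, 6.25 with FPKM plus 0.1 and 6.77 with at least 1 summed count. The first shift is the scaling itself, the second also the constant added to low FPKM, and the last the added low genes. The ratio of summed FPKM, 26.0 for UGT and 144 for SULT genes, became 46.97 and 260.0 when FPKM was divided by the TMM factors, by construction. Of 33 named related genes 6 lost and 1 gained a call with total counts, and the same numbers with FPKM plus 0.1; the call changed for none with DESeq2 size factors or upper quartiles. Of the 29 genes 5 had 3 or fewer untreated counts, so depth limits their ratios. No paired analysis was possible because each group has 1 library, and no library could be left out.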

Other observations

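Sulfotransferases and sugar transferases of the Golgi, which modify glycans and proteins rather than drugs and hormones, had calls near the shares of all genes with TMM. Of 20 tested Golgi sulfotransferase genes 7 were higher (35%, against 26.0% of all genes) and 5 lower (25%, against 27.4%) under TMM scaling. Total counts gave 2 higher (10%, against 16.0%) and 7 lower (35%, against 48.7%), so these counts are no result about the list. Their median log2 ratio was 0.19, against 8.75 for the 13 cytosolic SULT genes. The SULT median includes genes that passed the minimum only by their TSA count, for which the filter favoured a large ratio. *Gal3st1*, for the enzyme that makes sulfatide, had 3 counts with TSA and 125 without treatment and was 22.8-fold (7.63 to 112) lower. *Hs3st6* had 20 counts with TSA and 2 without treatment and was 18.3-fold (4.43 to 161) higher. *Ndst1*, which starts heparan sulfate modification, was at 1.5-fold (1.44 to 1.57), and *Hs6st1* was 2.32-fold (2.19 to 2.45) higher, or 1.28-fold of the untreated level with total counts. Of 6 tested UDP-sugar transferases outside the UGT families 2 were higher under TMM scaling (33.3%, against 26.0%) and 0 by total counts (against 16.0%), and 0 were lower, with *Csgalnact2* at 3.02-fold (2.48 to 3.69), *Ugcg* at 2.41-fold (2.13 to 2.73) and *Uggt1* at 1.39-fold (1.32 to 1.47).

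Enzymes that act on the same hormones as UGT and SULT enzymes were mostly higher. Of 13 tested genes of steroid and thyroid hormone turnover 12 were higher with TMM (92.3%, against 26.0%) and 10 with total counts (76.9%, against 16.0%), and 0 were lower under either, with a median log2 ratio of 5.46. *Dio1*, for the deiodinase that activates thyroid hormone, was 513-fold (325 to 867) higher, *Akr1c6*, a hydroxysteroid dehydrogenase gene, 262-fold (219 to 317) higher, and *Hsd11b1*, which regenerates active glucocorticoid, 114-fold (99.97 to 131) higher. *Hsd3b5* had 259 counts with TSA and 1 without treatment, a ratio of 473 (84.1 to 18742). Of 5 tested genes around haem breakdown, which supplies the bilirubin that *Ugt1a1* conjugates, 2 were higher (40%, against 26.0%) and 0 lower with TMM. Total counts gave 2 higher (against 16.0%) and 2 lower (40%, near the 48.7% of all genes). The higher genes were *Blvrb* at 5.28-fold (4.65 to 6.01) and *Fabp1*, for a fatty acid binding protein, at 25.7-fold (24.8 to 26.6). *Hmox2*, with a ratio of 0.798 (0.722 to 0.882), was called lower with total counts only. So was *Blvra*, with 172 counts with TSA and 582 without treatment, a ratio of 0.539 (0.452 to 0.640). *Hmox1*, at 1.29 (1.17 to 1.42), was not called under either scaling. *Blvra* and *Hmox1* were named after their values were seen.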
